A study of Mus musculus with 16 samples.

Results

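The 40 genes described here are genes of the interferon response, apart from the family of guanylate-binding proteins. They were listed by symbol, with earlier results of these data known. All 40 were found among the 57180 genes of the count tables, and 35 had enough counts to be tested. RNA was measured by poly(A) sequencing in the whole lung of mouse fetuses, stated to be male, at E14.5 (days of embryonic development), in 16 libraries. The 4 groups of 4 libraries were C57BL/6J (B6) controls, B6 treated with BMS493, A/J controls and A/J treated with BMS493. BMS493 holds every type of retinoic acid receptor in its inactive state (an inverse pan-agonist) and was given to the pregnant dam by mouth at 3.75 µg per g per day from E9.5 to E14.5, and control dams received corn oil over the same days. The exposure therefore reached the whole fetus through the dam and was not limited to the lung. No transgene or deletion is named for any group, and neither litters nor the pooling of lungs is given by the labels, so p-values measure only the spread between these samples.

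Interferons are secreted proteins that bind receptors at the cell surface and act through the kinases of the JAK family and factors that include STAT2 and IRF9. These factors bind an interferon-stimulated response element in the promoters of their target genes, while the response to interferon gamma also uses a gamma-activated site. The targets encode sensors of foreign RNA and DNA, proteins that block viral replication, GTPases that attack intracellular pathogens, and the machinery that presents peptides on MHC class I. Many of them are also held at a low level without infection.

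The promoters of some of these genes are shown first, since that element was the more frequent of the 2 motifs searched. RefSeq promoters (build GRCm38.p6), from 250 bases before to 50 bases after each start site, were at hand for 30 of the 40 genes. The core of the response element was searched as GAAANNGAAA and the gamma-activated site as TTCNNNGAA, each on both strands. The core stood in the promoters of 14 of the 30 genes (46.7%), and in 3.99% of 27025 genes with a promoter in the same table. Counted by promoter, since some genes have several, the shares were 40% of 35 and 3.44% of 32851. The gamma-activated letters stood at 10 of the 30 genes (33.3%), and at 9.55% of all genes. Of the 4 genes with matches to both, the matches overlapped at 1, Bst2. Either motif stood at 20 of the 30 genes. The stretches below are those in which the core lies upstream of the start site at 7 genes that represent the ISG15 system, the antiviral effectors, the GTPases and antigen presentation. Capitals mark the core, or its reverse complement where the match is on the opposite strand, and each line runs 5′ to 3′ in the direction of the gene.
Isg15, chr4:156200819-156200916, minus strand: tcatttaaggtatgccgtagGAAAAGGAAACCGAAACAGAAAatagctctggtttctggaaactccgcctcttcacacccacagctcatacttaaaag
Ifit3, chr19:34583353-34583472, plus strand: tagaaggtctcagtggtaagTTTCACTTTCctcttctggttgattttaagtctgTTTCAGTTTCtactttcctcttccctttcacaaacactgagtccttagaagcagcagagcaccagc
Rsad2, chr12:26456473-26456592, minus strand: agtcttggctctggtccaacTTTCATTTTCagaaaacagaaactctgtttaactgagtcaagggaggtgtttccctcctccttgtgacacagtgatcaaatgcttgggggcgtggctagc
Bst2, chr8:71537503-71537622, minus strand: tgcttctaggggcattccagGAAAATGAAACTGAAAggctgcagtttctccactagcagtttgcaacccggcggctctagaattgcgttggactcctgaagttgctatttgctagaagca
Irgm1, chr11:48871421-48871470, minus strand: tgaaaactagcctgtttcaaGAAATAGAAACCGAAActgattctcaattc
Igtp, chr11:58199502-58199555, plus strand: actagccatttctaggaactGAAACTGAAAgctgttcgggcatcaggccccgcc
B2m, chr2:122147528-122147647, plus strand: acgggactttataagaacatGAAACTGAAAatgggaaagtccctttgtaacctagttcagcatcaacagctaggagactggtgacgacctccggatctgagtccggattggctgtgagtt
At Isg15 3 matches overlapped into a run from base -78 to base -57 before the start, and at Bst2 and Irgm1 2 matches each did so. At Ifit3 2 separate matches stood on the opposite strand. The Tap1 and Psmb9 promoters face away from each other on chromosome 17 with start sites 226 bases apart, and neither held the core. A match is a description of these letters and not a measured binding site.

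Each library had between 15207539 and 24146224 fragments assigned to genes, 71.7% to 76.9% of all fragments. Values below are counts per 1000000 assigned fragments (CPM, with TMM scaling), given in the order of replicates 1 to 4. Differences are log2 fold changes with their standard error (SE), and "called" means an adjusted p under 0.05 in edgeR's quasi-likelihood test over all 17276 genes tested. All 5 retinoic acid target genes checked fell in treated B6, and 4 of the 5 were called in A/J, and their sum went from 44.9 to 59.3 CPM in controls to 12.1 to 21.6 in treated B6 and from 62.5 to 83.2 to 12.8 to 17.4 in A/J. All 3 mast cell markers tested were called higher in treated A/J. The lung genes Nkx2-1, Foxf1, Tbx4, Tbx5, Sftpc and Sox9 were detected in all libraries, at a summed 887 to 1829 CPM. Of these only Foxf1 was called with BMS493. It was lower in B6 (-0.40, SE 0.08, edgeR adjusted p = 0.0233) and for the mean over both strains (-0.33, SE 0.06, adjusted p = 0.00235). In A/J it was not called (-0.25, SE 0.08, adjusted p = 0.337). Of 10 lymphocyte markers none was tested, Cd3e had no counts, and their sum was 0.397 to 1.26 CPM. The 10 macrophage markers were all detected, at a summed 133 to 177 CPM.

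A library stood apart for these genes. In replicate 2 of the B6 BMS493 group the mean of the centred log2 CPM over the 35 genes was 0.64, against -0.23 to 0.27 in the other 15 libraries, of which replicate 3 of the same group was the highest. Replicate 2 held the highest value of all 16 libraries for 18 of the 35 genes (51.4%), and for 13.8% of all genes tested. Replicate 3 of the group was the highest for 3 of the 35 genes and for 15.95% of all genes, and its counts differed most from those of its group, with a chi-square per degree of freedom of 24.1 to 30.8 against 4.99 to 18.98 among the other 3. In replicate 2, 32 of the 35 genes lay above the mean of the other 3 libraries of the group, and 17 (48.6%) did so by more than 0.5 on the log2 scale, against 9.71% of all genes. Some markers of other cells stood apart in replicate 2 as well, and those named here were chosen after their values were seen. All 5 epithelial genes had their highest value there, with a sum of 1080 CPM against 560 to 854, and so did 3 of 5 endothelial genes, with a sum of 1208 CPM against 735 to 1126. Among the 6 lung genes 2 did, Sftpc at 867 CPM against 53.5 to 590 and Nkx2-1 at 312 against 161 to 244. Foxf1, Tbx4, Tbx5 and Sox9 did not, with Sox9 at 88.5 CPM there against 60.3 to 117. The erythroid sum was lowest there, at 233 CPM against 354 to 919, most of it Hbb-y, the 1 of 5 erythroid genes that was lowest. Of the 10 macrophage genes 1, Lyz2, was highest there (49.8 CPM against 11.7 to 35.9) and 1 lowest, and of the 5 dendritic cell genes 1, Clec9a (4.40 CPM against 0.928 to 3.21), was highest. Of the 5 retinoic acid targets 2 were lowest there and 0 highest. Of the 5 mast cell genes 1 was highest, and of the 5 neutrophil genes 1 was lowest. In bulk RNA more cells of a type and more RNA per cell cannot be told apart, and the part of these markers in the result was not tested. Fold changes and calls of the listed genes that moved by over 1.5 times or changed their call without replicate 2 are given both ways where they are printed.

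**Figure D1:**
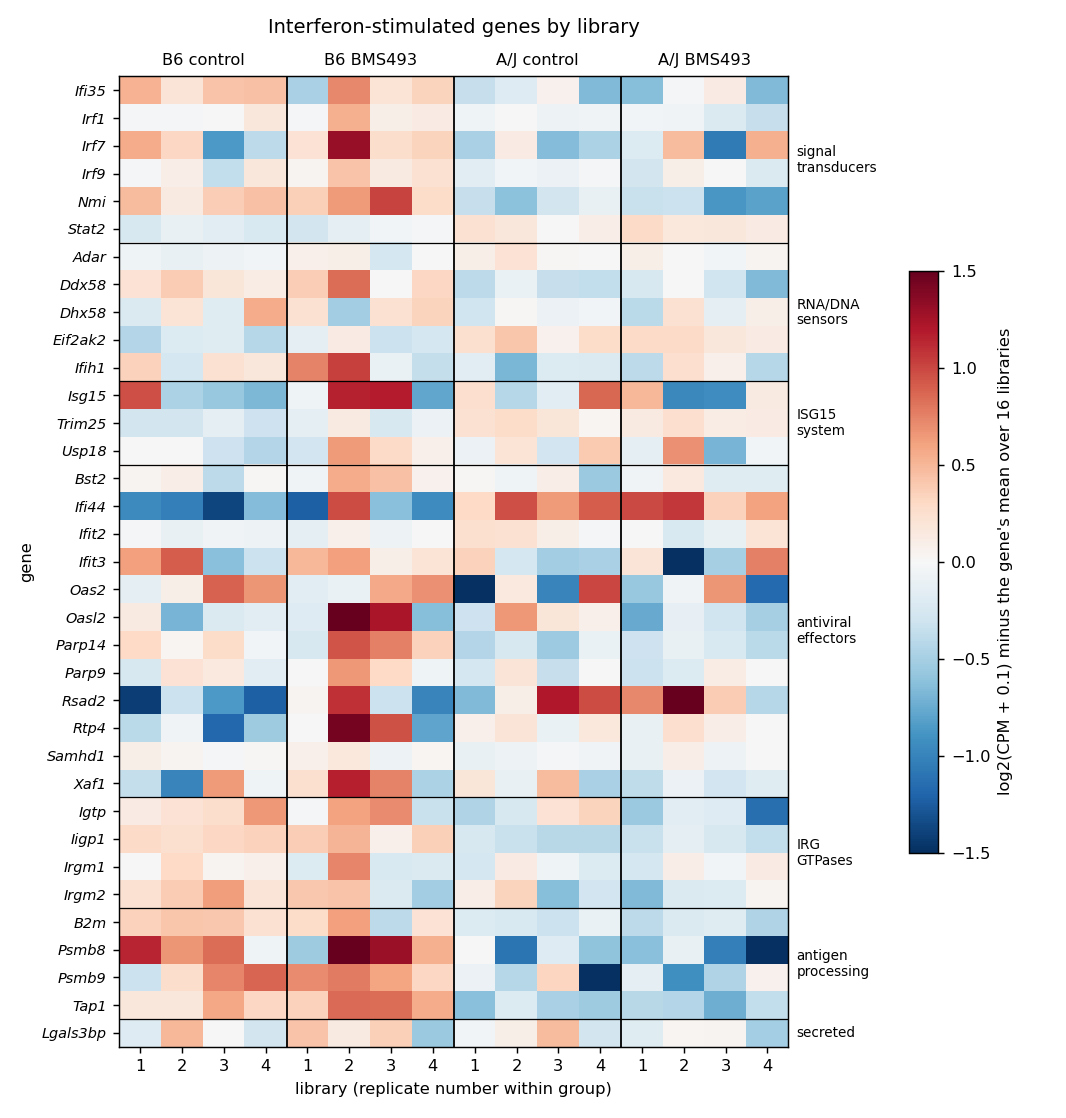
Heat map of the 35 tested genes (rows, by role) in the 16 libraries (columns, by group and replicate), coloured by log2(CPM + 0.1) minus the gene's mean over all libraries. The column of B6 BMS493 replicate 2 is red for most genes, while Nmi, Iigp1, Tap1 and B2m are lower across the A/J columns and Ifi44 is higher there.

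**Figure D2:**
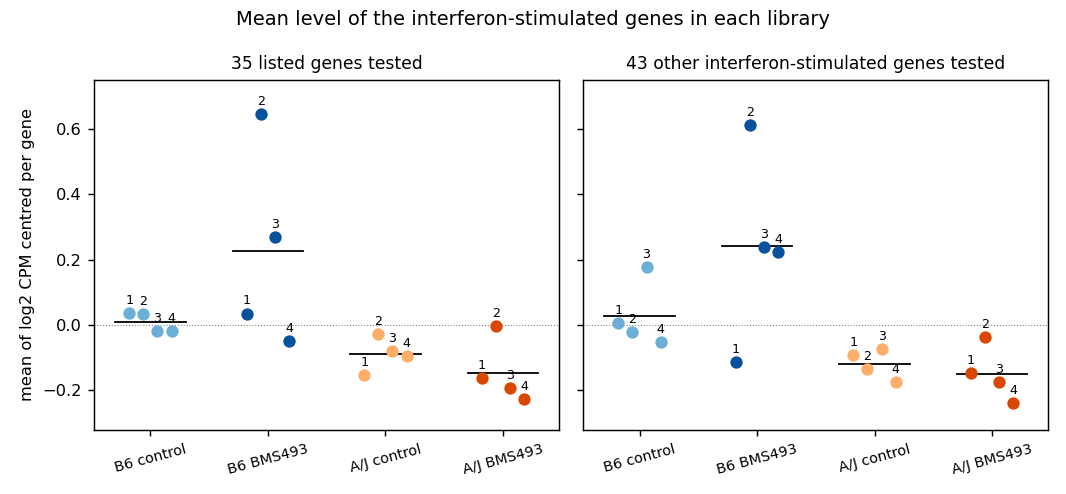
Mean over genes of log2 CPM centred on each gene's mean, per library (points, labelled by replicate number; bars, group means), for the 35 listed genes and for 43 other interferon-stimulated genes. Replicate 2 of B6 BMS493 is highest in both panels, at 0.64 and 0.61.

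The first question was whether BMS493 changed the interferon-stimulated genes. No change passed the test in either strain. With edgeR 0 of the 35 genes were called in B6, where 0.423% of all genes were, and 0 in A/J, where 0.486% were. None was called for the mean effect over both strains (background 1.37%) or for the difference between the strains' effects (background 0.00579%), and DESeq2 called 0 in each of these comparisons as well. At an unadjusted p under 0.05 there were 7 genes in B6 (20% of the 35, against 9.11% of all genes), 0 in A/J (6.23% of all), 1 for the mean (10.8% of all) and 2 for the difference (3.68% of all). Without B6 BMS493 replicate 2 the number in B6 was 3 of 36 (8.33%, against 8.49% of all genes in that fit). The lowest adjusted p was 0.205 in B6, 0.895 in A/J, 0.371 for the mean and 0.999 for the difference. For none of the 35 genes were the BMS493 and control libraries of a strain separate, without overlap, where 4.71% of all genes tested were in B6 and 4.87% in A/J.

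The fold changes in B6 leaned upwards and did so less without replicate 2. The median over the 35 genes was 0.19 with 28 above zero, against a median of 0.0070 over all genes tested. Without replicate 2 the median was 0.078, with 26 of 36 genes above zero. Without replicates 2 and 3 it was 0.018, with 21 of 37 above zero. In A/J the median was -0.020 with 13 of 35 above zero, against -0.0019 for all genes. The difference of the effects, A/J minus B6, had a median of -0.22 with all libraries and of -0.12 without replicate 2.

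**Figure D3:**
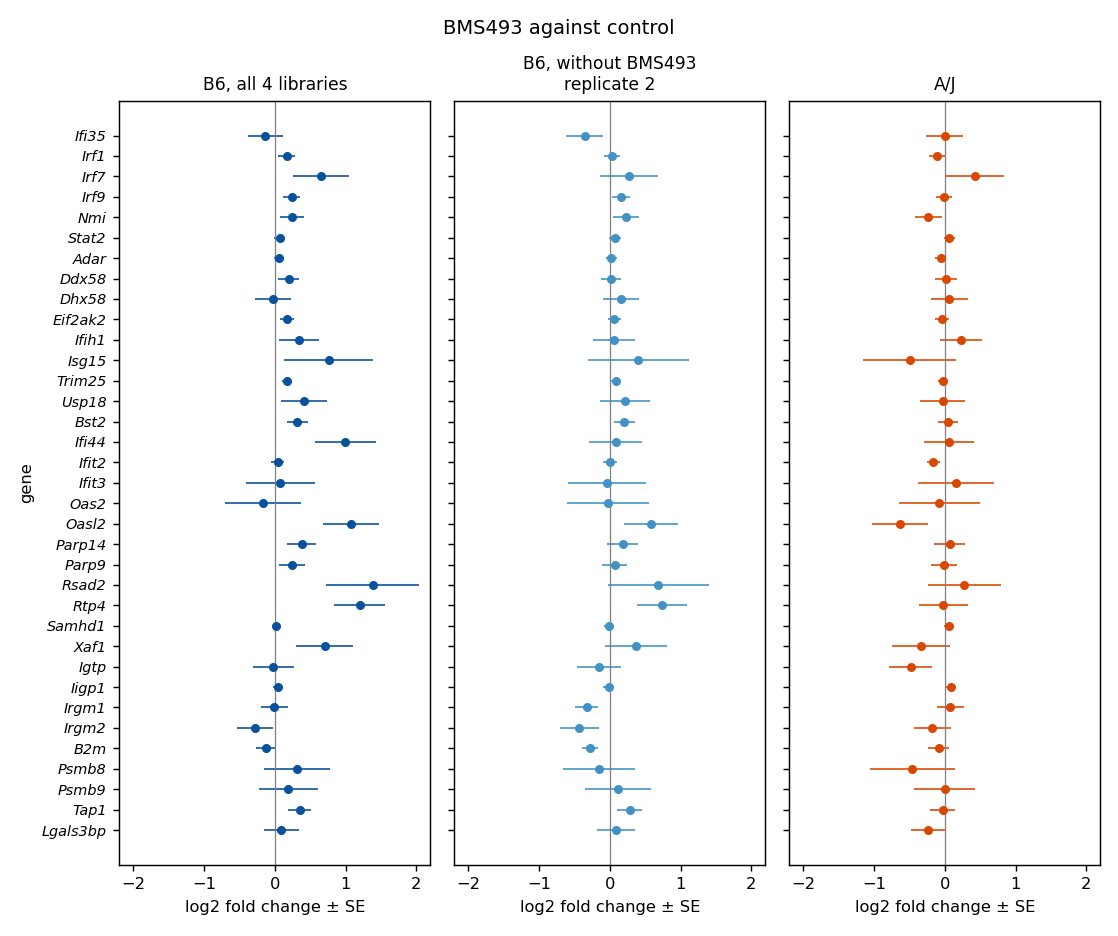
Log2 fold change of each gene with BMS493 against control (points, with SE) in B6, in B6 without BMS493 replicate 2, and in A/J. In B6 28 of 35 points lie to the right of zero and the median falls from 0.19 to 0.078 without that replicate, while in A/J 13 of 35 lie to the right.

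The second question was how the strains differed. Between controls 9 of the 35 genes were called (25.7%, against 16.9% of all genes), 4 of them higher and 5 lower in A/J. With BMS493 12 were called (34.3%, against 20% of all genes), 3 higher and 9 lower. Both comparisons called 8 genes, all in the same direction, 88.9% of the first list and 66.7% of the second. These were Stat2, Eif2ak2 and Trim25, higher in A/J, and Nmi, Ddx58, Iigp1, Tap1 and B2m, lower in A/J. The matching shares over all genes tested are not given, so whether this overlap is larger than elsewhere cannot be read from it. Ifi44 was called between controls alone, and Irf1, Oasl2, Parp14 and Psmb8 with BMS493 alone, although the difference of effects was called for none of the 5. Without B6 BMS493 replicate 2 those 4 calls were lost, Ifi44 was gained, and the 9 genes called with BMS493 were the 9 called between controls. The libraries of the strains did not overlap for 5 genes higher and 8 lower in A/J controls, where 24.3% of all genes did not, and for 2 higher and 6 lower with BMS493, where 19.5% did not. The median over the 35 genes was -0.10 between controls and -0.47 with BMS493, or -0.29 without that replicate.

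Several marker sums also differed between the strains. Endothelial markers summed to 957 to 1208 CPM in B6 and to 735 to 913 in A/J, epithelial markers to 751 to 1080 in B6 and 560 to 689 in A/J, and erythroid markers to 233 to 516 in B6 and 445 to 919 in A/J. Macrophage sums overlapped, at 133 to 177 CPM in B6 and 155 to 174 in A/J, but single genes did differ. Of the 10, Mrc1 was called higher (0.67, SE 0.09, edgeR adjusted p = 3.03e-06) and C1qb lower (-0.39, SE 0.13, adjusted p = 0.0423) in A/J controls, and with BMS493 3 were called higher and 2 lower. The share of multimapping fragments, which the gene counts leave out, was 2.81% to 3.29% in B6 and 3.62% to 4.06% in A/J. The authors' build is that of C57BL/6J, and how well A/J reads align to it was not tested. Nor was the part of the marker sums in the strain results tested.

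**Figure D4:**
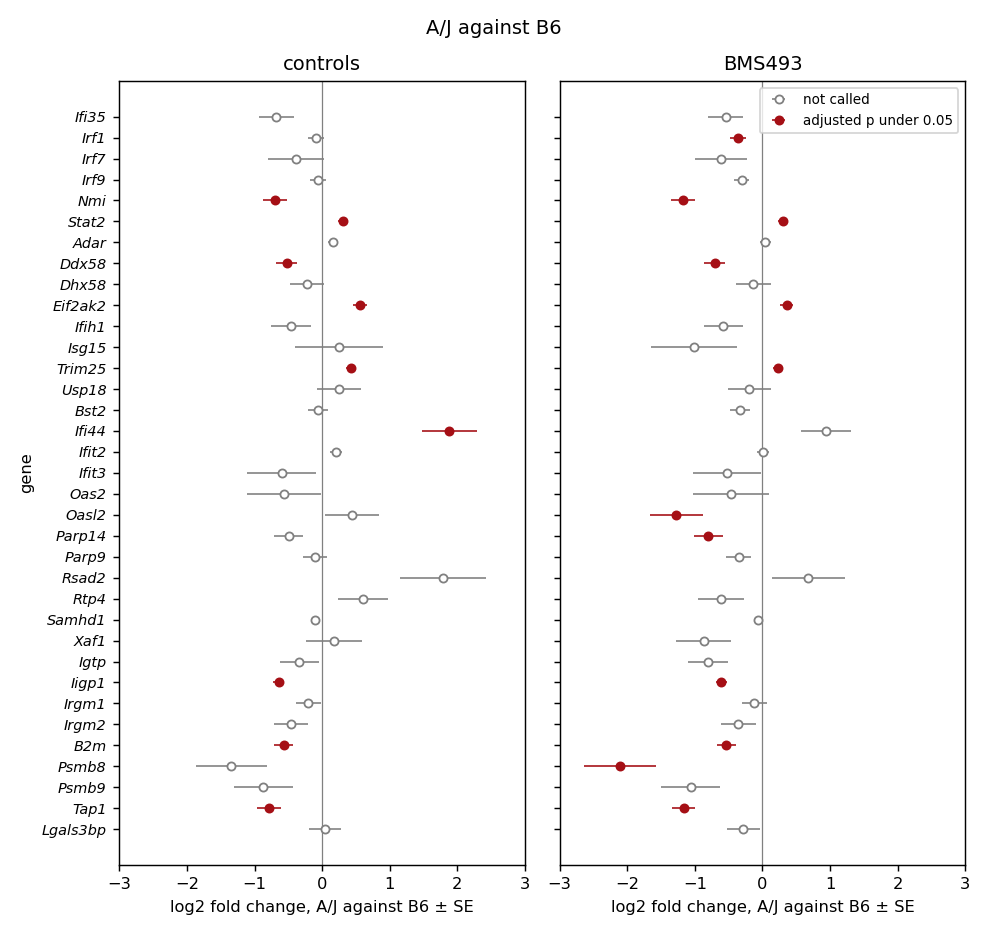
Log2 fold change of A/J against B6 (points, with SE) for the 35 genes in controls and with BMS493, with called genes filled. Nmi, Ddx58, Iigp1, Tap1 and B2m are called on the left in both panels, and Stat2, Eif2ak2 and Trim25 on the right.

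Interferon genes themselves were all but absent. Of 21 interferon genes 19, among them Ifnb1, Ifng and every Ifna gene listed, had 0 counts in all 16 libraries. A count of 0 allows up to 3 counts, or 0.124 to 0.2002 CPM depending on the library, and covers counting error only. Ifnk and Ifnz had at most 5 counts in a library. Of the 6 receptor genes 5 were tested. Ifnar1, a chain of the receptor for type I interferons, averaged 132 CPM in B6 controls and 119 to 127 in the other groups, and Ifnar2, its partner, 11.7 to 13.1. Ifngr1, the ligand-binding chain of the interferon gamma receptor, was 46.5, 45.9, 43.3 and 45.9 CPM in B6 controls and 34.6, 32.5, 35.5 and 35.1 in A/J controls. Its controls did not overlap, and it was lower in A/J by a log2 fold change of -0.40 (SE 0.08, edgeR adjusted p = 0.00115) between controls and of -0.38 (SE 0.08, adjusted p = 0.00197) with BMS493. Ifngr2, its signalling partner, averaged 31.0 to 34.5 CPM, Ifnlr1, for interferon lambda, 4.56 to 6.12, while Il10rb, which is shared with interleukin receptors, had 42 counts in all and was not tested. None of the 5 was called with BMS493 in either strain.

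Stat2, a part of the factor that binds the response element, ranged from 23.4 to 28.0 CPM over the B6 libraries and from 28.2 to 34.6 over the A/J libraries. The strains did not overlap in Stat2, which was higher in A/J by 0.31 (SE 0.08, adjusted p = 0.00714) between controls and by 0.30 (SE 0.08, adjusted p = 0.00703) with BMS493. The call with BMS493 was lost on the first stranded column (0.26, adjusted p = 0.0608). Irf9, the DNA-binding part of that factor, ranged from 11.4 to 19.9 CPM and was not called, though it was under some alternatives between strains with BMS493. Irf1, a factor induced by interferon gamma, ranged from 8.97 to 16.5 CPM. The top Irf1 value was in B6 BMS493 replicate 2. With BMS493 the difference of A/J from B6 in Irf1 was -0.37 (SE 0.12, adjusted p = 0.0302), and -0.23 (adjusted p = 0.201) without that replicate. The call was also lost without A/J BMS493 replicate 3 (adjusted p = 0.0801) or 4 (0.110), with only the 8 libraries compared (0.0994) and with no filter (0.0505).

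Nmi, which binds STAT factors and strengthens their action, was the signal gene that differed most between strains. Its levels were 7.48, 5.91, 6.92 and 7.28 CPM in B6 controls and 6.92, 8.37, 10.9 and 6.49 in treated B6. In A/J they were 4.20, 3.46, 4.42 and 4.94 CPM in controls and 4.22, 4.27, 2.88 and 3.02 with BMS493. All 8 A/J libraries lay below all 8 B6 libraries. The log2 fold change of A/J against B6 was -0.70 (SE 0.18, edgeR adjusted p = 0.00714) between controls and -1.17 (SE 0.18, adjusted p = 2.91e-05) with BMS493.

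Ifi35, which pairs with Nmi, was 3.35, 2.64, 3.12 and 3.15 CPM in B6 controls, 1.62, 3.85, 2.67 and 2.93 in treated B6, 1.78, 1.99, 2.41 and 1.42 in A/J controls and 1.44, 2.24, 2.51 and 1.41 in treated A/J. Its controls did not overlap between strains, but the difference of -0.67 (SE 0.25) was not called (edgeR adjusted p = 0.0708). Irf7, the factor that amplifies type I interferon production, had the largest mean change of the signal genes with BMS493. It measured 1.495, 1.24, 0.495 and 0.721 CPM in B6 controls, 1.16, 2.58, 1.20 and 1.26 in treated B6, 0.675, 1.08, 0.592 and 0.681 in A/J controls and 0.835, 1.41, 0.419 and 1.46 in treated A/J. The ranges overlapped in each strain. In B6 replicate 2 was the 1 treated library above every control of its strain, and in A/J replicates 2 and 4 were. The change was 0.66 (SE 0.39, adjusted p = 0.651) in B6, 0.27 without replicate 2, and 0.43 (SE 0.41, adjusted p = 0.998) in A/J.

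Among the sensors, Ddx58, which encodes the RNA sensor RIG-I, was lower in A/J. Its values were 12.3, 13.7, 11.9 and 11.3 CPM in B6 controls, 13.6, 18.8, 10.5 and 13.04 in treated B6, 8.01, 9.83, 8.24 and 8.11 in A/J controls and 8.86, 10.5, 8.51 and 6.60 in treated A/J. The strains did not overlap within either treatment. The difference was -0.53 (SE 0.15, edgeR adjusted p = 0.0173) between controls and -0.71 (SE 0.15, adjusted p = 0.00132) with BMS493. The control call was lost without B6 control replicate 2 (-0.47, adjusted p = 0.0648), without A/J control replicate 1 (-0.49, adjusted p = 0.0521) and on the first stranded column (-0.48, adjusted p = 0.0629).

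Eif2ak2, the kinase PKR that stops translation on double-stranded RNA, was higher in A/J. It measured 21.1, 24.9, 25.2 and 21.2 CPM in B6 controls, 25.9, 31.1, 22.8 and 23.8 in treated B6, 33.95, 38.1, 30.0 and 34.7 in A/J controls and 34.8, 34.9, 32.1 and 31.2 in treated A/J. Every A/J library lay above every B6 library of the same treatment. The difference was 0.56 (SE 0.10, edgeR adjusted p = 0.000157) between controls and 0.36 (SE 0.10, adjusted p = 0.0101) with BMS493.

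Ifih1, which encodes the RNA sensor MDA5, had the highest fold change of the sensors with BMS493 in B6, though not without replicate 2. It was 2.32, 1.49, 2.13 and 2.03 CPM in B6 controls, 3.08, 3.76, 1.67 and 1.38 in treated B6, 1.59, 1.08, 1.55 and 1.53 in A/J controls and 1.35, 2.16, 1.91 and 1.31 in treated A/J. In B6 treated libraries lay both above and below the controls, in A/J they lay within and above them, and the changes of 0.34 in B6 and 0.23 in A/J were not called (edgeR adjusted p = 0.757 and 1). Without replicate 2 the change in B6 was 0.060, below those of Dhx58 (0.16) and Eif2ak2 (0.064). Dhx58, the related sensor LGP2 that modulates the other RNA sensors, was 1.495, 2.02, 1.53 and 2.62 CPM in B6 controls, 2.07, 1.18, 2.07 and 2.24 in treated B6, 1.40, 1.77, 1.64 and 1.70 in A/J controls and 1.30, 2.07, 1.58 and 1.86 in treated A/J. For Dhx58 the library that stood apart was the lowest of all 16, not the highest. Adar, which edits adenosine in double-stranded RNA, was 40.2, 39.0, 40.1 and 40.8 CPM in B6 controls, 44.5, 44.7, 35.04 and 42.1 in treated B6, 44.9, 49.2, 42.7 and 41.9 in A/J controls and 44.7, 42.5, 41.2 and 43.4 in treated A/J. The A/J controls lay above the B6 controls, by 0.16 (SE 0.08), which was not called (adjusted p = 0.165).

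In the ISG15 system, Isg15 encodes a ubiquitin-like protein, Usp18 the protease that removes it and damps interferon receptor signalling, and Trim25 a ligase for ISG15 and ubiquitin. Trim25 was higher in A/J, at 84.1, 86.7, 81.4 and 73.5 CPM in A/J controls against 59.2, 59.4, 65.2 and 57.8 in B6 controls. With BMS493 it was 78.9, 85.2, 77.3 and 78.2 CPM in A/J and 64.6, 78.6, 60.9 and 67.5 in B6. Only the controls were free of overlap, since replicate 2 of B6 BMS493 reached the A/J level. The strain difference was 0.43 (SE 0.07, edgeR adjusted p = 0.000126) between controls and 0.23 (SE 0.07, adjusted p = 0.0255) with BMS493, or 0.31 (adjusted p = 0.00224) without that replicate. The call with BMS493 was lost without B6 BMS493 replicate 1 (adjusted p = 0.0617), 3 (0.0844) or 4 (0.0508), without A/J BMS493 replicate 2 (0.0821), with only the 8 libraries compared (0.0688) and on the first stranded column (0.0696).

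Isg15 itself was near the limit of detection, with 101 counts over all 16 libraries. Its values were 0.619, 0.165, 0.148 and 0.131 CPM in B6 controls, 0.252, 0.719, 0.734 and 0.115 in treated B6, 0.338, 0.173, 0.228 and 0.567 in A/J controls and 0.417, 0.0880, 0.0930 and 0.302 in treated A/J. Each group spanned a several-fold range, and the changes of 0.76 (SE 0.63) in B6 and -0.50 (SE 0.66) in A/J were not called (edgeR adjusted p = 0.757 and 1). Without replicate 2 the change in B6 was 0.40. Usp18 was 1.19, 1.20, 0.940 and 0.852 CPM in B6 controls, 0.959, 1.90, 1.47 and 1.26 in treated B6, 1.11, 1.39, 0.956 and 1.59 in A/J controls and 1.07, 1.98, 0.698 and 1.16 in treated A/J, with overlap in every comparison.

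The antiviral effectors held the largest changes with BMS493 in B6. Of the 12 tested, 11 had a positive fold change in B6 with a median of 0.35, and 6 did in A/J with a median of 0.017. Without replicate 2 of B6 BMS493, 9 of the same 12 were positive in B6 with a median of 0.13. Oasl2, a 2′-5′-oligoadenylate synthetase-like protein, was 1.55, 0.826, 1.19 and 1.25 CPM in B6 controls and 1.21, 4.52, 3.40 and 0.861 in treated B6. In A/J it was 1.11, 2.25, 1.59 and 1.47 CPM in controls and 0.789, 1.28, 1.12 and 0.957 with BMS493. Replicates 2 and 3 of B6 BMS493 lay above every other library, and replicates 1 and 4 lay within the control range. The change was 1.08 (SE 0.39, edgeR adjusted p = 0.346) in B6, or 0.58 (adjusted p = 0.707) without replicate 2, and -0.64 (SE 0.40, adjusted p = 0.941) in A/J. The strain difference with BMS493, -1.28 (SE 0.39, adjusted p = 0.0227), was -0.78 (adjusted p = 0.192) without replicate 2 and -0.0067 (adjusted p = 0.997) without replicates 2 and 3. This call was also lost without B6 BMS493 replicate 3 (adjusted p = 0.0611), without A/J BMS493 replicate 1 (0.0737) or 4 (0.0618), with only the 8 libraries compared (0.0800) and on the first stranded column (0.118).

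Rtp4, an interferon-induced regulator of antiviral signalling chosen here after its values were seen, was also highest in replicates 2 and 3 of B6 BMS493. It was 1.08, 1.40, 0.593 and 0.984 CPM in B6 controls, 1.46, 4.14, 2.94 and 0.804 in treated B6, 1.54, 1.69, 1.37 and 1.65 in A/J controls and 1.35, 1.76, 1.58 and 1.46 in treated A/J. Its change in B6 was 1.20 (SE 0.36, edgeR adjusted p = 0.205), and 0.73 (adjusted p = 0.584) without replicate 2. It was called with no filter on low counts (1.20, adjusted p = 0.0191) and when B6 BMS493 replicate 4 was left out. In A/J it was -0.02 (SE 0.35, adjusted p = 1).

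Ifi44, an interferon-induced protein that restrains viral replication, was higher in A/J. It was 0.567, 0.537, 0.396 and 0.721 CPM in B6 controls, 0.454, 2.45, 0.734 and 0.574 in treated B6, 1.495, 2.42, 1.91 and 2.33 in A/J controls and 2.46, 2.60, 1.53 and 1.86 in treated A/J. Apart from replicate 2 of B6 BMS493, which reached the A/J level, all B6 libraries lay below all A/J libraries. The strain difference was 1.88 (SE 0.41, edgeR adjusted p = 0.00182) between controls. With BMS493 it was 0.94 (SE 0.37, adjusted p = 0.0782), and 1.86 (SE 0.33, adjusted p = 0.000224) without that replicate. With all libraries and no filter on low counts it was called (0.94, adjusted p = 0.0284).

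Rsad2, which encodes the antiviral enzyme viperin, had the largest fold change of all 35 genes in B6 with all libraries but few counts, 190 over all libraries. It was 0.103, 0.330, 0.198 and 0.131 CPM in B6 controls, 0.454, 1.06, 0.334 and 0.172 in treated B6, 0.241, 0.476, 1.14 and 0.964 in A/J controls and 0.789, 1.67, 0.605 and 0.302 in treated A/J. The change in B6 of 1.38 (SE 0.66) was not called (edgeR adjusted p = 0.536). Without replicate 2 it was 0.69, below Rtp4 (0.73) and Mx2 (0.85), which was then tested. The strain difference between controls of 1.78 (SE 0.64) was not called by edgeR either (adjusted p = 0.0551), but was by edgeR with no filter (adjusted p = 0.0118) and by DESeq2. Oas2, which makes the messenger that activates RNase L, had the lowest fold change of the effectors in B6, at -0.17 (SE 0.54, adjusted p = 0.948), but without replicate 2 it was -0.027 and Ifit3, at -0.036, was lower. It was 0.412, 0.496, 0.940 and 0.787 CPM in B6 controls, 0.404, 0.423, 0.734 and 0.804 in treated B6, 0.0965, 0.519, 0.182 and 1.02 in A/J controls and 0.278, 0.440, 0.791 and 0.151 in treated A/J, a wide spread within each group.

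Parp14, an ADP-ribosyltransferase of the interferon response, was 4.02, 3.30, 3.96 and 3.15 CPM in B6 controls, 2.73, 6.34, 5.54 and 4.13 in treated B6, 2.36, 2.73, 2.19 and 3.01 in A/J controls and 2.60, 2.99, 2.74 and 2.42 in treated A/J. The controls of the strains did not overlap. With BMS493 Parp14 was lower in A/J by a log2 fold change of -0.80 (SE 0.21, edgeR adjusted p = 0.00872), or -0.60 (adjusted p = 0.0659) without replicate 2 of B6 BMS493. Its partner Parp9 ranged from 4.24 to 8.54 CPM and Xaf1, which promotes apoptosis, from 0.330 to 1.82 CPM, each with its top value in that replicate. Bst2, which encodes tetherin and holds virions at the membrane, ranged from 10.4 to 22.7 CPM with its top value there too. Its strain difference of -0.33 with BMS493 was not called (edgeR adjusted p = 0.115), but was with no filter (adjusted p = 0.0406) and without B6 BMS493 replicate 1. Without replicate 2 of B6 BMS493 that difference was -0.22 (adjusted p = 0.371).

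The remaining effectors were called in no comparison. Samhd1, which depletes nucleotides, ranged from 106 to 128 CPM, and Ifit2, which binds foreign RNA, from 23.4 to 32.5 CPM. Ifit3, the partner of Ifit1, ranged from 0.0880 to 0.909 CPM. Ifit3 has a near-identical copy, Ifit3b, so its counts depend on how reads were placed. Ifit1, Mx1, Mx2, Zbp1 and Cxcl10 had 28 to 90 counts over all libraries and were not tested. Of these, Mx1 had 3, 4, 4 and 2 counts in B6 controls and 6, 14, 13 and 5 in treated B6, with no overlap, and 2 to 9 in A/J. With no filter its change in B6 was 1.59 and not called (edgeR adjusted p = 0.482). Per kilobase of exon, the highest levels of the 40 genes were B2m at a mean of 81.8 CPM per kb (58.3 to 122 over the 16 libraries), Bst2 at 17.4 (11.6 to 25.1) and Trim25 at 12.6 (10.04 to 15.1), and Bst2, Trim25 and the next, Samhd1 at 12.5 (11.55 to 13.99), did not separate over the libraries. Among the 35 genes tested 12 averaged at least 10 CPM, 16 lay from 1 to 10 and 7 under 1.

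**Figure D5:**
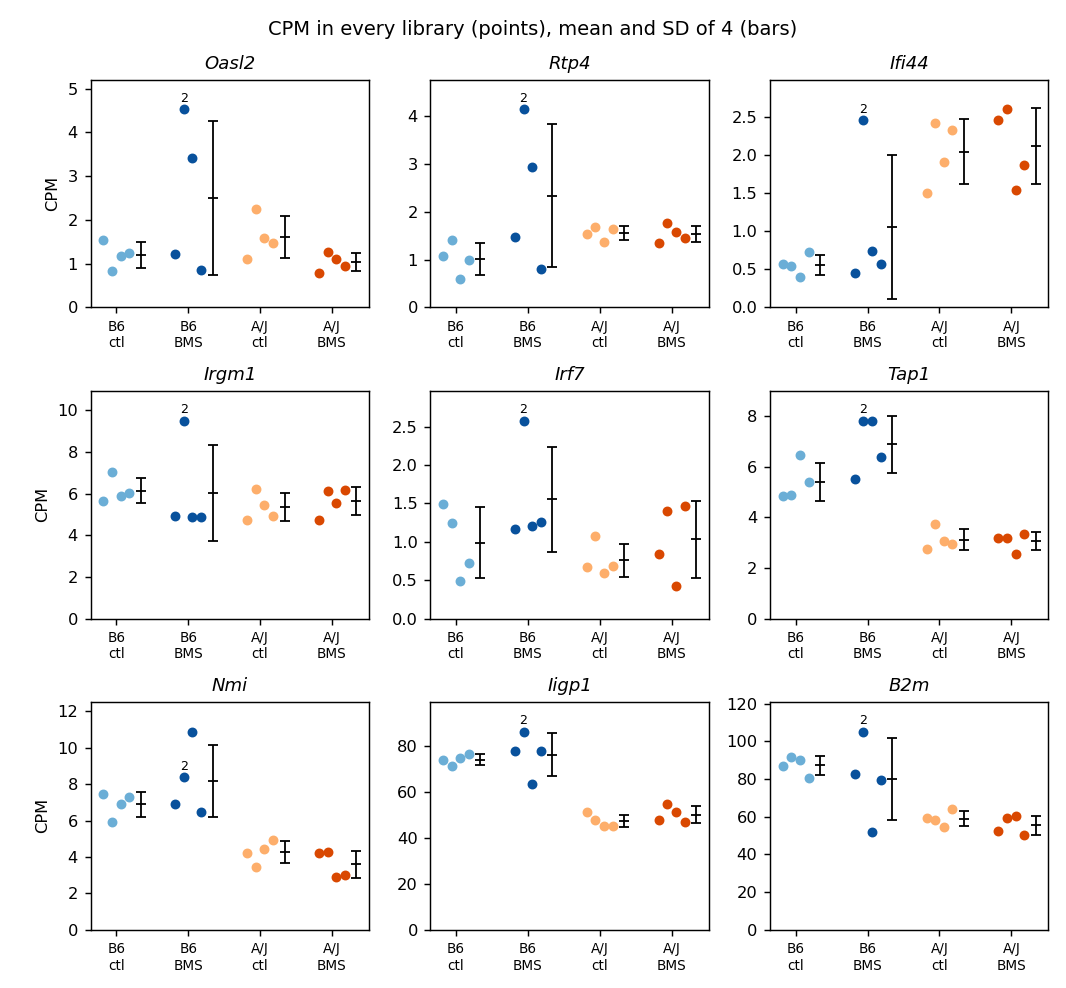
CPM of 9 genes in every library (points by group; replicate 2 of B6 BMS493 marked 2) with the mean and SD of 4 libraries beside them. Replicate 2 tops its group for all genes shown except Nmi, and the A/J points of Tap1, Nmi and Iigp1 lie below the B6 points.

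The immunity-related GTPases coat and break the vacuoles of intracellular pathogens. Iigp1 was by far the most abundant of them and lower in A/J. It was 73.8, 71.3, 74.6 and 76.6 CPM in B6 controls, 77.8, 86.2, 63.5 and 77.6 in treated B6, 51.1, 47.8, 45.3 and 45.2 in A/J controls and 47.8, 54.8, 51.1 and 46.8 in treated A/J. No A/J library reached a B6 library. The difference was -0.64 (SE 0.08, edgeR adjusted p = 7.71e-07) between controls and -0.61 (SE 0.08, adjusted p = 1.87e-06) with BMS493, while its fold change with BMS493 was 0.05 (SE 0.08) in B6, or -0.02 without replicate 2, and 0.08 (SE 0.08) in A/J.

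Irgm1, a regulator of the other GTPases, ranged from 4.73 to 7.02 CPM in 15 libraries and was 9.51 CPM in B6 BMS493 replicate 2, against 4.95, 4.87 and 4.88 in the other libraries of that group. Its change in B6 was -0.01 (SE 0.19) with that replicate and -0.33 (SE 0.16, edgeR adjusted p = 0.584) without it. Irgm2, of the same regulatory class, was 2.47, 2.77, 3.31 and 2.43 CPM in B6 controls, 2.83, 2.88, 1.80 and 1.44 in treated B6, 2.27, 2.68, 1.32 and 1.70 in A/J controls and 1.30, 1.80, 1.81 and 2.17 in treated A/J. Its change of -0.28 (SE 0.26) in B6 was the lowest of the 35 genes there and was not called (adjusted p = 0.778), and it was -0.43 (adjusted p = 0.699) without replicate 2. Igtp, also called Irgm3, was 1.70, 1.82, 1.88 and 2.49 CPM in B6 controls, 1.51, 2.41, 2.60 and 1.21 in treated B6, 1.11, 1.30, 1.82 and 1.99 in A/J controls and 1.02, 1.36, 1.35 and 0.655 in treated A/J. It overlapped in each comparison, with a change of -0.49 (SE 0.30, adjusted p = 0.941) in A/J.

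All 4 genes of antigen processing had a negative fold change in A/J against B6 in both treatments. Tap1, a chain of the transporter that carries peptides into the endoplasmic reticulum, was 4.85, 4.87, 6.48 and 5.38 CPM in B6 controls, 5.50, 7.82, 7.81 and 6.37 in treated B6, 2.75, 3.72, 3.05 and 2.95 in A/J controls and 3.20, 3.17, 2.56 and 3.32 in treated A/J. The strains did not overlap. The difference was -0.78 (SE 0.17, edgeR adjusted p = 0.00181) between controls and -1.17 (SE 0.17, adjusted p = 1.38e-05) with BMS493, or -1.09 without replicate 2 of B6 BMS493.

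B2m, the invariant light chain of MHC class I, was 86.9, 91.4, 90.3 and 80.4 CPM in B6 controls, 82.7, 105, 51.9 and 79.7 in treated B6, 59.2, 58.3, 54.6 and 63.8 in A/J controls and 52.2, 59.1, 60.2 and 50.1 in treated A/J. The controls did not overlap, while replicate 3 of B6 BMS493 fell to the A/J level. The difference was -0.57 (SE 0.14, edgeR adjusted p = 0.0111) between controls and -0.53 (SE 0.14, adjusted p = 0.0148) with BMS493, or -0.37 (adjusted p = 0.0336) without replicate 2, and the call with BMS493 was lost without A/J BMS493 replicate 4 (adjusted p = 0.0515) and with only the 8 libraries compared (0.0717). With BMS493 in B6 its fold change was -0.12 (SE 0.14, adjusted p = 0.839), or -0.29 (SE 0.11, adjusted p = 0.522) without replicate 2, and it was called when the filter on low counts was left out as well.

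Psmb8 and Psmb9 encode subunits of the immunoproteasome and lie beside Tap1 in the MHC region of chromosome 17, where B6 and A/J carry different haplotypes. Psmb8 was 1.19, 0.826, 0.940 and 0.459 CPM in B6 controls, 0.303, 1.86, 1.33 and 0.747 in treated B6, 0.482, 0.173, 0.410 and 0.284 in A/J controls and 0.278, 0.440, 0.186 and 0.0504 in treated A/J. The ranges overlapped by 1 library in each treatment. Its difference of -2.11 (SE 0.54, edgeR adjusted p = 0.0059) with BMS493 was -1.65 (adjusted p = 0.0529) without replicate 2 (with only the 8 libraries compared Psmb8 had too few counts to be tested), and that of -1.34 (SE 0.52) between controls was not called (adjusted p = 0.0807), but was with no filter (adjusted p = 0.0495). Psmb9 was 0.516, 0.826, 1.19 and 1.31 CPM in B6 controls, 1.16, 1.23, 1.07 and 0.861 in treated B6, 0.627, 0.476, 0.865 and 0.0567 in A/J controls and 0.603, 0.308, 0.465 and 0.705 in treated A/J. The strains did not overlap in Psmb9 with BMS493, but the difference of -1.06 (SE 0.44) was not called (adjusted p = 0.0927).

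The counts without strand leave out fragments where genes on opposite strands overlap. For Psmb8 they held 42.2% of the sum of the stranded columns, for Irf7 47.5%, for Ifi35 54.8%, for Psmb9 67.5% and for Adar 67.7%. For Usp18, Dhx58 and Irf1 they held 73.0% to 76.0% of that sum, and for 30 of the 40 genes over 99%. Where genes overlap, the sum also takes in fragments of the opposite gene, since the libraries were not strand-specific. The levels given here therefore leave out a part of these genes' own fragments, and the size of that part was not tested.

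Of the secreted products, Cxcl10, a chemokine, had 28 counts in all and was not tested. It had 0 counts in the 4 libraries of treated B6 and 7, 0, 1 and 4 in treated A/J, a difference that was called with no filter on low counts (edgeR adjusted p = 0.0361). Lgals3bp, a glycoprotein that binds galectins, was 2.17, 3.55, 2.47 and 2.03 CPM in B6 controls, 3.38, 2.75, 3.20 and 1.67 in treated B6, 2.41, 2.64, 3.51 and 2.04 in A/J controls and 2.18, 2.55, 2.56 and 1.71 in treated A/J. The 4 groups overlapped, and it was called in no comparison.

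Beyond the listed genes, 116 other genes of the pathway were counted, of which 76 were tested. With BMS493 0 were called in B6 and 0 in A/J by edgeR (11 and 8 at an unadjusted p under 0.05, or 14.47% and 10.5%, against 9.11% and 6.23% of all genes). For the mean effect 1 of the 76 was called (1.32%, against 1.37% of all genes), Helz2, an interferon-induced helicase, at 0.27 (SE 0.07, edgeR adjusted p = 0.0381). Helz2 was 35.5, 33.4, 35.8 and 33.0 CPM in B6 controls, 38.4, 48.8, 45.8 and 36.5 in treated B6, 33.5, 30.2, 30.1 and 28.4 in A/J controls and 33.5, 42.5, 37.7 and 31.3 in treated A/J. In B6 its groups did not overlap. Without replicate 2 of B6 BMS493 the mean effect on Helz2 was 0.24 (SE 0.07, adjusted p = 0.0873), no longer called. The top value of 20 of the 43 other interferon-stimulated genes tested (46.5%) was in that replicate, and their mean there was 0.61 on the same centred scale, against -0.24 to 0.24 elsewhere. Between control strains the calls among the 76 were 4 with A/J above B6 and 11 with A/J below (19.7%, against 16.9% of all genes), and with BMS493 they were 5 and 20 (32.9%, against 20%).

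The Gbp family, kept apart from the 40 genes, had 8 genes tested and did hold calls with BMS493 in A/J, where 0.486% of all genes were called. Gbp2 fell from 9.501, 9.65, 10.8 and 11.9 CPM in A/J controls to 2.18, 1.41, 1.63 and 1.31 with BMS493, by a log2 fold change of -2.67 (SE 0.19, edgeR adjusted p = 1.67e-09), and was the 1 gene called for the difference of effects (-2.16, SE 0.28, adjusted p = 0.000737). Gbp2b (-2.72, SE 0.24, adjusted p = 5.06e-07) and Gbp5 (-2.09, SE 0.42, adjusted p = 0.0149) fell in A/J as well. Gbp3, Gbp4, Gbp7, Gbp8 and Gbp9 were tested and not called there. The 35 genes had A/J fold changes from -0.64 to 0.43 and adjusted p of at least 0.895. The difference between the lists was not tested.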

How the data were processed

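RNA from 16 fetal lung samples was sequenced after poly(A) selection. The authors deposited raw counts per gene in 3 columns (without strand and for each strand); FastQC, cutadapt and STAR and the build GRCm39 are named per the submitters' processing notes, without versions. Rows that name no gene held 23.1% to 28.3% of the fragments and were left out. The first strand column held 51.0% to 52.0% of the stranded counts, so the column without strand was used. Symbols, chromosomes and exon lengths came from GENCODE M21, which matched 51933 identifiers. The 40 genes and all lists were chosen with earlier results of these data known.

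Tables were joined in Python 3.11.15 (pandas 2.3.3) and plotted with matplotlib 3.10.9. In R 4.3.3, edgeR 4.0.16 filtered genes (filterByExpr left 17276), scaled libraries by TMM and fitted a robust quasi-likelihood model with 1 coefficient per group to 16 libraries (12 residual degrees of freedom). Tests were two-sided, with Benjamini-Hochberg adjustment over all genes tested. Centred levels used log2 CPM with a prior count of 2. A listed gene was given in every library where it was called with a log2 fold change of at least 0.5 in size, or had the highest or lowest fold change of its role with BMS493. Other pathway, Gbp and marker genes were named only where called with BMS493, or as interferon or interferon receptor, apart from the lung markers, Cd3e and markers singled out after their values were seen. A gene of the pathway is not reported here. Counts of all 24 pairs of replicates differed beyond sampling noise (lowest chi-square per degree of freedom 3.52). Ifit, Oas and IRG genes have close relatives, so their counts depend on how reads were placed. The model was tested on simulated data. Alternatives were RLE scaling, DESeq2 1.42.0, other filters, a replicate block, the library set as a term, the first stranded column, only the 8 libraries compared, and leaving out libraries.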

Additional observations from a re-analysis of the deposited data

Results flagged for a closer look

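Dixon's ratio, the distance of an extreme library to its neighbour over the spread of all 4, was above the 95% critical value in 8 of 144 groups of 4 values (the 35 genes and their mean). Chance does so in about 1 in 20 groups. In 4 of the 8 the library was replicate 2 of B6 BMS493. For Irgm1 the ratio was 0.984 (9.51 CPM against 4.87 to 4.95), for Irf7 0.928 (2.58 against 1.16 to 1.26) and for Ifi44 0.860 (2.45 against 0.454 to 0.734), while for Dhx58 it was 0.838 with that library lowest (1.18 against 2.07 to 2.24). In B6 controls Isg15 had a ratio of 0.930 (replicate 1 at 0.619 CPM against 0.131 to 0.165) and Irf1 of 0.832 (replicate 4 at 12.9 against 11.2 to 11.47). In A/J controls replicate 2 was lowest for Ifih1, at a ratio of 0.882 (1.08 CPM against 1.53 to 1.59), and highest for Ddx58, at 0.870 (9.83 against 8.01 to 8.24).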

How the results depend on the processing

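In B6 with BMS493, 1 gene was called with no filter on low counts (Rtp4, higher) in place of 0, and 1 without replicate 2 of B6 BMS493 and with no filter (B2m, lower), where the mean effect also called 1 (B2m, lower). The latter alternative, and leaving out replicates 2 and 3 together, were chosen after seeing the data. Leaving out each library in turn gave 0 to 1 calls in B6 (1, Rtp4, without B6 BMS493 replicate 4), 0 in A/J, for the mean and for the difference, 8 to 10 between control strains and 9 to 15 between strains with BMS493. The last count was 7 (2 higher, 5 lower) with only the 8 libraries compared, where B2m, Oasl2, Irf1 and Trim25 were not called and Psmb8 was not tested. No call turned its direction. Without replicate 2 of B6 BMS493 the sign of the fold change turned in B6 for 5 genes (Dhx58, Ifit3, Samhd1, Iigp1, Psmb8), between strains with BMS493 for 2 (Usp18, Irgm1) and for the difference of effects for 4 (Irf7, Ifih1, Dhx58, Oas2), none of them called with or without it. With the replicate number as a block the counts were 0 for each of the 4 treatment comparisons, 10 between control strains and 13 with BMS493. Samples of the same number correlated from -0.15 to 0.14, over 0.1 in 1 of 16 pairs, so the numbers were not read as pairing. Of the calls with BMS493 between strains, Trim25 and Oasl2 were lost in 4 of the 16 fits that left out a library, Irf1 in 3, and Parp14, Psmb8 and B2m in 1 each. Under at least 1 alternative, calls were gained by Ifi35, Psmb8, Rsad2 and Zbp1 between control strains and by Bst2, Cxcl10, Ifi35, Ifi44, Igtp, Irf9, Psmb9 and Rtp4 between strains with BMS493. Genes under 1 CPM had too few counts to show small changes.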

Other observations

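Genes with the core of the response element in their promoter and those without it were set side by side in replicate 2 of B6 BMS493, as a description. The 12 tested genes with the core lay above the mean of the other 3 libraries of the group by a median of 0.56 on the log2 scale (-0.030 to 1.52, the lowest Stat2). The 16 tested genes with a promoter at hand but without the core did so by a median of 0.29 (0.062 to 1.91, the highest Ifi44). The ranges overlapped widely, and the difference was not tested.

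The spread between replicates of the 35 genes exceeded that of all genes in each group. The median SD of log2 CPM was 0.22 for the 35 genes against 0.12 for all genes in B6 controls, 0.24 against 0.15 in A/J controls, 0.26 against 0.13 in treated A/J and 0.40 against 0.20 in treated B6. Without replicate 2 of the last group the values were 0.26 and 0.19. Many of the 35 genes have low counts, and the part of depth in this was not tested.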
